A study of Mus musculus with 8 samples.

Results

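The genes described here encode the proteins of the cytosolic ribosome. Members were the genes whose mouse symbol is Rpl or Rps followed by a number and at most a short suffix of the letters a, x or l, together with Rplp0, Rplp1, Rplp2 and Rpsa, and probes were assigned through the accession in the array design. Of 22911 genes named on the array, 83 were members, with 143 probes. A filter on dim probes kept 139 of these probes, which stood for 80 genes, and all 139 were well above background on all 8 arrays. Rpl6l, a further symbol that meets the rule, had no probe.

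The small subunit of the ribosome reads the messenger RNA, and the large subunit joins amino acids and carries the stalk that recruits translation factors. Ribosomal protein messages are among the most abundant in most cells, and the cell makes the proteins in matched amounts. Many of these messages begin with a C and a run of pyrimidines, the 5′ terminal oligopyrimidine (TOP) tract, through which mTOR signaling controls their translation. In the retina, photoreceptors renew their outer segments throughout life and therefore depend on steady protein synthesis.

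Expression was measured in whole retinas of mice aged 46 to 55 weeks, for which the labels give no treatment. Each of 4 samples from mice labelled as homozygous Mrp4 knockouts (Mrp4-null) and 4 samples from wild-type (WT) mice was hybridized as Cy3-labelled cRNA to 1 one-color Agilent array. Mrp4, encoded by Abcc4, is a membrane transporter that exports cyclic nucleotides, prostaglandins and drugs. The labels name no tissue-specific driver for the knockout, and the methods leave it unclear whether a sample pooled several mice, so that p-values measure only the spread between these samples. In whole tissue, fewer cells of a type and less RNA per cell cannot be told apart.

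All samples shared 1 slide, the WT arrays in its first row and the Mrp4-null arrays in its second, so that position and genotype cannot be told apart. The 75th percentile of signal ran from 678 to 1082 and was lowest on Mrp4-null array 2 (678), WT array 3 (706) and WT array 4 (781). It did not separate the genotypes (difference of 0.081 on the log2 scale, exact two-sided permutation test, p = 0.8286, where 0.0286 is the smallest that 4 arrays against 4 can give). Abcc4 went against the label: its normalized log2 signal was 10.84, 10.71, 10.64 and 10.80 on the Mrp4-null arrays and 6.62, 7.13, 6.54 and 7.02 on the WT arrays (log2 fold change 3.92, limma adjusted p = 1.36e-05), so every direction below follows the labels as deposited. Where the probe lies relative to the deleted part of the gene is not given in the sources used here, and outside that part it would not check the labels. The Xist probe was well above background on 4 Mrp4-null and 2 WT arrays, and the probes of 4 Y-linked genes on none of the Mrp4-null and at most 3 WT arrays. Sex-linked signal thus went partly with genotype, so that sex and genotype cannot be fully told apart in any comparison below. All 13 rod, 8 cone, 15 inner retina and 8 Muller glia marker genes were measured above background. So were 15 of 19 lens genes, whose 20 probes had a median log2 level from 5.60 to 7.60 on the Mrp4-null arrays and from 6.62 to 8.98 on the WT arrays.

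The sequences around the annotated start of a few member genes are shown because the members moved together between arrays, as described further on. RefSeq promoters (build GRCm38.p6) were found for 62 of the 83 genes. Each line gives 30 bases on the coding strand, with CTTTC, the core of many TOP tracts, and CCGGAAG, the site of ETS factors, in capitals. Rps27 and Rpl39 were the genes with the largest shared swings, Rpl31 a further variable gene, Rplp2 a stalk protein, Rpl7a and Rps6 steadier genes, and Rpl11 the gene with the smallest p between genotypes.
Rps27, chr3:90213629-90213658, minus strand: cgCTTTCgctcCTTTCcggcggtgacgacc
Rpl39, chrX:37085203-37085232, minus strand: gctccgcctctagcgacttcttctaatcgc
Rpl31, chr1:39367841-39367870, plus strand: tcctcgcctccccgtgacCCGGAAGttgta
Rplp2, chr7:141447641-141447670, plus strand: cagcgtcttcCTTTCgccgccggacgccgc
Rpl7a, chr2:26910797-26910826, plus strand: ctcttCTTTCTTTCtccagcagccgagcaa
Rps6, chr4:86857348-86857377, minus strand: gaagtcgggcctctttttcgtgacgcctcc
Rpl11, chr4:136053374-136053403, minus strand: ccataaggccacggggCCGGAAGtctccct
CTTTC stood in the printed window of the strongly varying Rps27 and of the steady Rpl7a, and neither motif stood in that of Rpl39 or Rps6. Further upstream, within 250 bases of its start, Rps6 did hold CCGGAAG.

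Over the 74 promoters of the members, CTTTC was found on the coding strand from -20 to 30 around the start in 22 (29.7%), against 6.57% of all 32851 promoters. CCGGAAG was found on either strand, from 250 bases before to 50 after the start, in 35.1% of the members' promoters and in 8.86% of all promoters. AAGATGG, the letters of a YY1 site, was found on either strand in 14.9% and 6.34%, and GGGCGG, the GC box, on either strand in 58.1% and 35.7%. TATAAA on the coding strand was found in 8.11% and 8.32%. Matches may overlap each other, some genes have several promoters, and a match is a run of letters rather than a measured binding site.

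No ribosomal protein gene was called changed between the genotypes. A call needed a limma adjusted p under 0.05 and a 1.5-fold difference or more, which 0 of the 139 member probes reached, against 0.545% of the 37085 retained probes. The local pooled error test, with p adjusted in the same way, also called 0 members and 0.626% of all retained probes. No member had an unadjusted limma p under 0.05, which 6.46% of all retained probes had. Of the 3709 probes in the tenth of retained probes with the highest signal, 119 had such a p, and limma called 8. The smallest member p was 0.067 (adjusted p = 0.838), for Rpl11. The other 138 member probes had an adjusted p of 1.00.

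The interval of each difference bounds how large a change could have been missed. For these intervals and the p-values above, limma drew the variance of each probe toward a value shared by all retained probes. For a probe that varied little between arrays, this can widen the interval and raise p. For 138 of the 139 member probes (99.3%), the 95% interval of the fold change lay within 1.5-fold in either direction, against 77.2% of all retained probes. In the tenth of retained probes with the highest signal, the share was 95.8%. The median interval reached 0.216 to either side on the log2 scale, or 1.16-fold. The exception was probe A_52_P491433 of Rps15a, a small subunit protein, with a log2 fold change of -0.047 (95% interval -0.83 to 0.73). The log2 fold changes of the members, Mrp4-null minus WT, lay between -0.15 and 0.12, with a median of -0.0099, and the median over all retained probes was -0.0093. Their median size without sign was 0.025, against 0.083 over all retained probes and 0.050 in the tenth with the highest signal. The difference was smaller than the span of the arrays of each genotype in 137 members, and in 89.6% of all retained probes. The exceptions were Rpl11 and Rpl13a, the latter with a log2 fold change of 0.047, named after its values were seen.

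**Figure D1:**
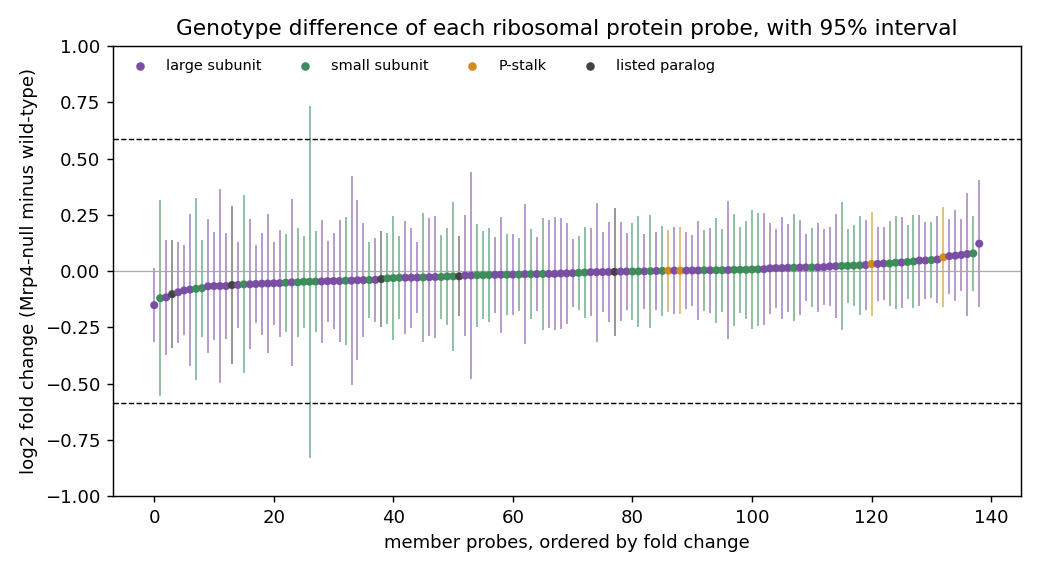
Log2 fold change, Mrp4-null minus WT (vertical axis), of the 139 member probes in order of size (horizontal axis), with limma's 95% interval as a vertical line and the subunit as color; the dashed lines mark a 1.5-fold change. Every point lies between -0.15 and 0.12, and 1 interval, that of an Rps15a probe, crosses the dashed lines.

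Of the member probes, 55 had a higher and 84 a lower mean on the Mrp4-null arrays, so that 39.6% were higher against 46.8% of all retained probes. This count moved with single arrays: it was 103 without Mrp4-null array 3, 89 without WT array 3, 29 without Mrp4-null array 2 and 26 without WT array 1. It also moved with the scaling, to 11 after a shift of each array to its 75th percentile and to 108 without normalization. No direction of the members as a group is given for this reason.

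Rpl11 binds 5S ribosomal RNA together with Rpl5, and the pair restrains Mdm2 when ribosome assembly is disturbed. The log2 signal of Rpl11 was 15.72, 15.86, 15.70 and 15.70 on the Mrp4-null arrays and 15.89, 15.92, 15.86 and 15.91 on the WT arrays. Its log2 fold change was -0.15 (standard error 0.072, 95% interval -0.32 to 0.013). The arrays of the genotypes just failed to mix, with the highest Mrp4-null array at the level of the lowest WT array, and Rpl11 was the only member without overlap, against 4.79% of all retained probes. Rpl5 did not share this order, at 13.35, 13.25, 13.04 and 13.41 on the Mrp4-null arrays and 13.10, 13.42, 13.30 and 13.34 on the WT arrays (log2 fold change -0.029, 95% interval -0.28 to 0.22).

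The large subunit was measured by 79 probes of 44 genes, of which 30 had a higher and 49 a lower mean on the Mrp4-null arrays (median log2 fold change -0.011). The largest positive value belonged to a weakly hybridizing probe of Rpl37, A_51_P206665, with 5.29, 5.53, 5.42 and 5.69 on the Mrp4-null and 5.12, 5.36, 5.39 and 5.58 on the WT arrays (log2 fold change 0.12, 95% interval -0.16 to 0.40). Rpl9, near the base of the stalk, was read by 2 probes with log2 fold changes of -0.12 and -0.086, and both intervals included 0. Rpl4 and one probe of Rpl7a (A_55_P2001347), core proteins of the subunit, had log2 fold changes of 0.067 and 0.072. These sizes were all within the span of the arrays of either genotype.

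The small subunit was measured by 51 probes of 30 genes, of which 21 had a higher and 30 a lower mean on the Mrp4-null arrays (median log2 fold change -0.0076). Rps6, the target of S6 kinase that is widely used as a readout of mTOR signaling, was read by 2 probes. The first, A_55_P1955239, gave 13.44, 13.27, 13.23 and 13.46 on the Mrp4-null arrays and 13.21, 13.44, 13.25 and 13.33 on the WT arrays, and its log2 fold change was 0.042 (95% interval -0.16 to 0.25). The second gave a log2 fold change of 0.016 (95% interval -0.16 to 0.19), and in both probes the genotypes overlapped. Rpsa, which also serves as a laminin receptor, had log2 fold changes of 0.037 and -0.0062. Rps19, the gene most often mutated in Diamond-Blackfan anemia, had -0.076 (95% interval -0.29 to 0.14) with one probe and -0.026 (95% interval -0.21 to 0.16) with the other.

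The stalk proteins form the flexible arm that contacts elongation factors. Rplp0, its base, was at 14.05, 14.15, 14.14 and 13.97 on the Mrp4-null arrays and at 14.11, 14.03, 14.17 and 13.998 on the WT arrays (log2 fold change 0.0020, 95% interval -0.18 to 0.18). The 2 probes of Rplp1 had log2 fold changes of 0.031 and 0.061, and Rplp2 had 0.0021. The 3 genes thus overlapped between the genotypes in all 4 probes.

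Rps27l, Rpl36al and Rps4l were listed as variant copies of a ribosomal protein, and none of their 5 retained probes was called changed either. Rpl32l, whose symbol also marks a copy, was counted with the large subunit and had a log2 fold change of 0.0021. Rps27l, a p53-responsive copy of Rps27, was read by 2 probes with log2 fold changes of -0.10 and -0.062. Rpl36al, a copy of the X-linked Rpl36a, had -0.035 and -0.023, and Rps4l, listed as a transcribed pseudogene of Rps4x, had -0.0035. Their partner genes had log2 fold changes of -0.059 and -0.079 in Rps27, between -0.094 and -0.044 in the 3 probes of Rpl36a and -0.016 in Rps4x, and none was called. Rpl3l, known from skeletal and cardiac muscle, and Rpl10l, known from testis, were not well above background on any array. The testis-enriched Rpl39l was so on 1 array of each genotype. The fourth probe that the filter removed was one of Rps27a, well above background on 1 WT array, while its other probe was kept. The gene table lists 321 pseudogene symbols of ribosomal proteins, whose transcripts can share sequence with a member, so a probe may read more than its named gene.

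Members on the 19 chromosomes they occupy stayed within the same narrow range. On chromosome 14, Rpl15 and Rps24 gave log2 fold changes from -0.12 to 0.079. On chromosome 8, the 3 probes of Rpl13 gave 0.018, 0.0036 and 0.021. On chromosome 4, Rpl11, Rpl22, Rps6 and Rps20 gave values from -0.15 to 0.076. The X-linked Rpl10, Rpl36a, Rpl39 and Rps4x gave values from -0.094 to -0.016, on arrays that also differed in the sex-linked probes described above. The part of the sex of the mice in these values, as in those of the other members, was not tested.

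Within a genotype, the members moved together from array to array. The deviation of a probe on an array was taken from its mean over the arrays of the same genotype, on the log2 scale. The median deviation of the 139 members was -0.0036, 0.103, -0.116 and -0.0075 on Mrp4-null arrays 1 to 4 and -0.148, 0.0070, 0.071 and 0.050 on WT arrays 1 to 4. Members were therefore high on Mrp4-null array 2 and on WT arrays 3 and 4, and low on Mrp4-null array 3 and WT array 1. Over all retained probes the medians lay between -0.0064 and 0.0064, and over the tenth of retained probes with the highest signal they lay between -0.0020 and 0.0043. Quantile normalization gives all arrays the same distribution, so that these medians are held near 0 largely by construction. Because the members share libraries, these counts describe the arrays and are not a test.

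**Figure D2:**
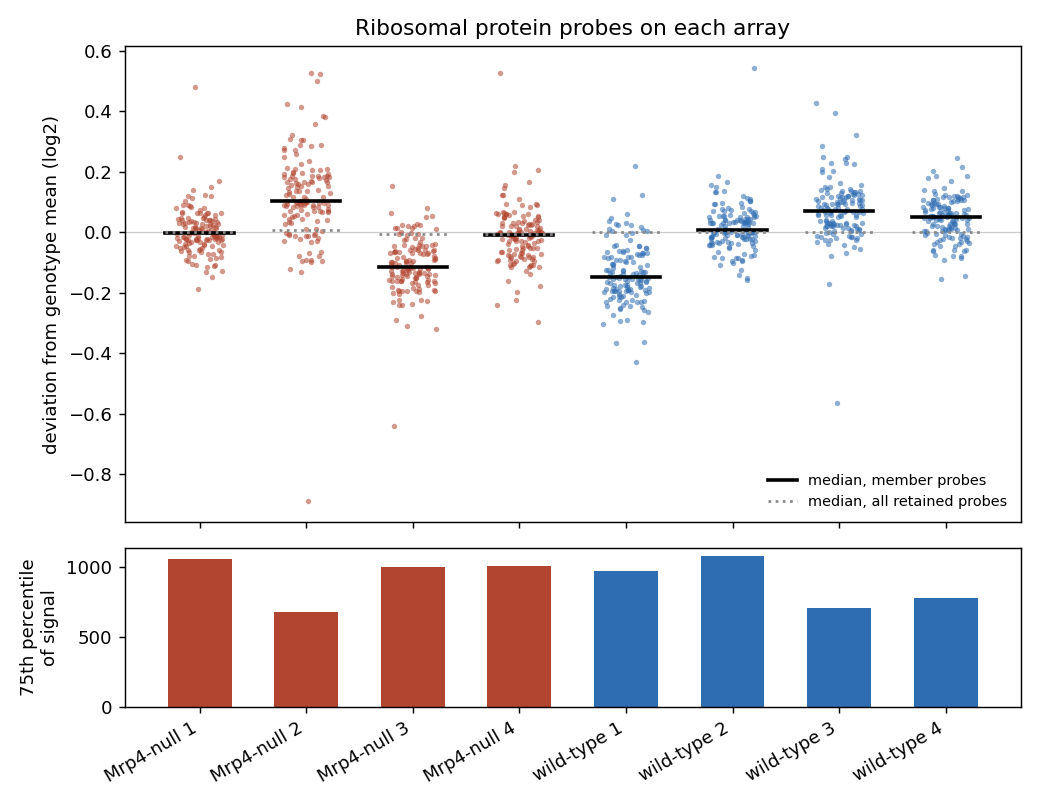
Upper panel: deviation of each of the 139 member probes from its genotype mean (log2) on each array, with the median of the members as a black line and that of all retained probes as a dotted line. Lower panel: 75th percentile of the processed signal of each array, as bars. The members' medians run from -0.148 on WT array 1 to 0.103 on Mrp4-null array 2, while the dotted lines are held near 0 by the normalization.

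The shift reached most members. On Mrp4-null array 2, 114 of 139 probes lay above their genotype mean, and on WT array 3, 117 did. On Mrp4-null array 3, 14 did, and on WT array 1, 15 did. The 4 conditions held together, high on the first pair of arrays and low on the second, for 97 probes of 60 genes. These arrays were picked from the members' own medians, so a high joint count is partly built in. The joint share of all retained probes was not counted. Over all retained probes, the share above the genotype mean was 50.9% on Mrp4-null array 2, 49.9% on WT array 3, 48.2% on Mrp4-null array 3 and 50.1% on WT array 1. Mrp4-null array 3 was the lowest of its genotype for 100 members and for 7176 of the 37085 retained probes, and WT array 1 for 115 members and for 8967 retained probes. Both subunits took part: the median deviation on Mrp4-null array 2 was 0.096 in the large and 0.148 in the small subunit, and on WT array 1 it was -0.152 and -0.135. The 4 stalk probes had 0.124 and -0.162 on the same arrays.

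**Figure D3:**
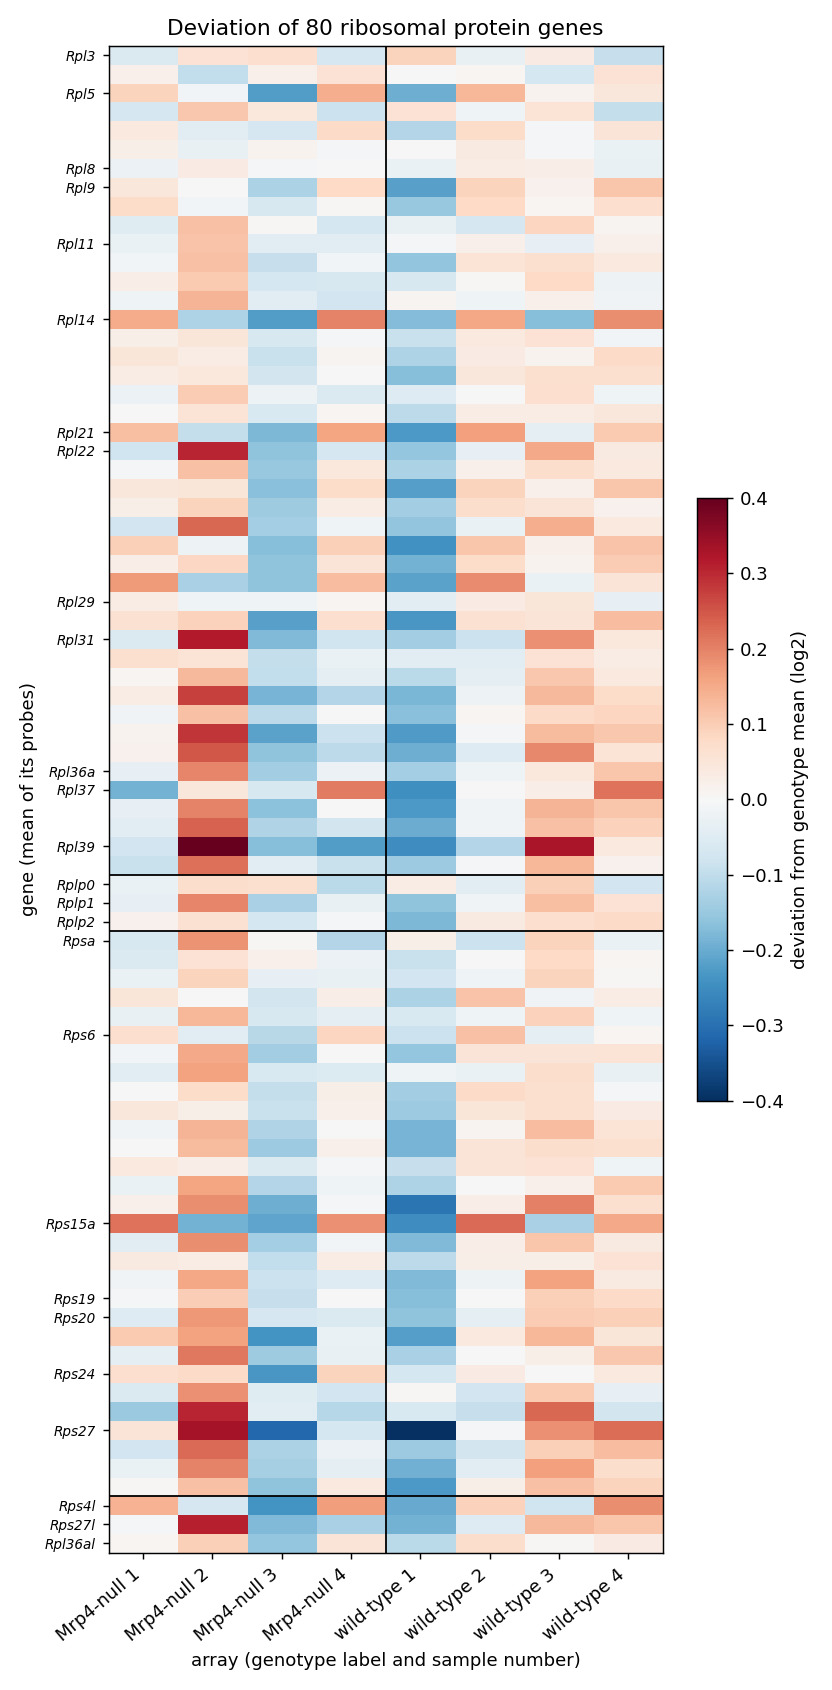
Deviation from the genotype mean (log2, color) of the 80 measured member genes, each the mean of its probes, on the 8 arrays, with horizontal lines between large subunit, stalk, small subunit and variant copies and with names at genes the text describes. Red columns at Mrp4-null array 2 and WT arrays 3 and 4, and blue columns at Mrp4-null array 3 and WT array 1, run through both subunits, with exceptions such as Rpl3, Rpl14 and Rps15a.

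The 3 arrays on which the members were high were those with the lowest 75th percentile of signal, 678, 706 and 781, while the arrays on which they were low had 1000 and 970, somewhat below the 1010 to 1082 of the remaining arrays. The part of the signal strength in the shared shift was not tested. The sign of the shift relative to all probes on these 5 arrays was kept under other scalings: Mrp4-null array 2 lay 0.097 above the median deviation of all probes after quantile normalization, 0.13 after cyclic loess and 0.17 after the shift to the 75th percentile. The values of WT array 1, in the same order, were -0.15, -0.15 and -0.22. Values relative to all probes are the same without normalization as after the shift, by construction. With Mrp4-null array 2 and WT array 3, those with the lowest signal, left out, a choice made after seeing the data, Mrp4-null array 3 deviated by -0.067, against -0.116 with all arrays, and WT array 1 by -0.124, against -0.148. Without WT array 1, the deviation of WT array 3 was 0.030 and that of WT array 4 was -0.0026. In each case the mean that the arrays are set against lacks the arrays left out.

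Across the members, the SD between arrays of a genotype had a median of 0.114 on the Mrp4-null and 0.116 on the WT arrays, against 0.194 and 0.163 over all retained probes. The residual SD, which pools both genotypes, had a median of 0.119 in the members, 0.188 over all retained probes and 0.110 in the tenth with the highest signal. The gap depended on the scaling: the medians of members and of all retained probes were 0.186 and 0.195 after the shift to the 75th percentile, and 0.195 and 0.315 without normalization. From the highest to the lowest array, the median member spanned 1.20-fold in either genotype. The residual SD was under 0.1 for 51 members and over 0.2 for 15, which stood for 9 genes.

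Rpl39, a small basic protein that lines the exit tunnel of the large subunit, varied most consistently and had 5 probes. Probe A_55_P2182106 read 13.64, 14.26, 13.59 and 13.44 on the Mrp4-null arrays and 13.62, 13.65, 14.12 and 13.81 on the WT arrays. From the highest to the lowest array this was 1.76-fold and 1.42-fold. Probe A_55_P2857689 read 11.60, 12.23, 11.51 and 11.48 on the Mrp4-null arrays and 11.45, 11.61, 12.14 and 11.79 on the WT arrays. In all 5 probes, Mrp4-null array 2 was the highest of its genotype and WT array 3 of its own, and the residual SD was between 0.242 and 0.327. Their log2 fold changes between genotypes lay between -0.066 and -0.020, well below that spread.

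Rps27, a zinc-binding protein of the small subunit also called metallopanstimulin, varied almost as much. Probe A_55_P2155438 read 16.06, 16.38, 15.72 and 15.94 on the Mrp4-null arrays and 15.72, 16.05, 16.28 and 16.28 on the WT arrays. Its second probe read 15.63, 15.87, 15.24 and 15.51, and 15.21, 15.66, 15.81 and 15.89. In both probes, Mrp4-null array 3 and WT array 1 were the lowest of their genotypes, and the log2 fold changes were -0.059 and -0.079. The less variable Rpl31, by the exit of the tunnel, read 13.82, 14.28, 13.70 and 13.80 on the Mrp4-null and 13.79, 13.90, 14.23 and 14.02 on the WT arrays with probe A_55_P2038299 (log2 fold change -0.082). Rpl31 was thus again highest on Mrp4-null array 2 and WT array 3.

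**Figure D4:**
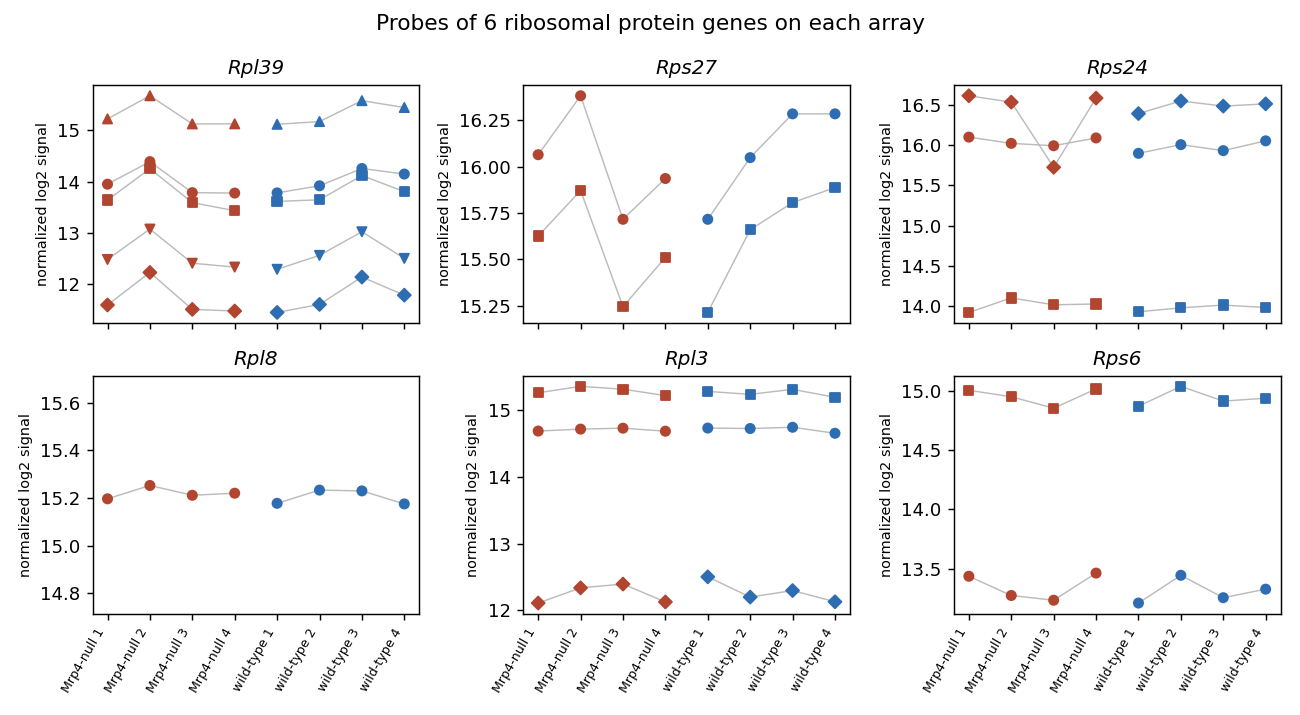
Normalized log2 signal (vertical axes, one scale per panel) of each retained probe of 6 genes on the 8 arrays, with a marker shape per probe and lines joining the arrays of a genotype; probes of a gene differ in hybridization, so their heights are not compared. The 5 Rpl39 probes and the 2 Rps27 probes are highest of the Mrp4-null arrays on array 2, Rpl8 and one Rpl3 probe are nearly flat, and 1 of the 3 Rps24 probes drops to 15.73 on Mrp4-null array 3.

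In 2 genes, a probe with a large spread was not followed by the other probes of the gene. Rps24, a small subunit protein with alternatively spliced ends, had 16.61, 16.53, 15.73 and 16.59 on the Mrp4-null arrays and 16.39, 16.55, 16.49 and 16.51 on the WT arrays with probe A_55_P2032600. On Mrp4-null array 3, the low array of that probe, the other probes read 15.99 (between 16.02 and 16.10 on the other Mrp4-null arrays) and 14.01 (between 13.92 and 14.10). Among the 44 genes with several retained probes, Rps24 also had the widest range of log2 fold changes, 0.199, and in 29 of the 44 all probes had the same sign. Probe A_52_P491433 of Rps15a read 8.21, 6.84, 7.61 and 8.26 on the Mrp4-null arrays and 7.66, 8.32, 7.21 and 7.91 on the WT arrays. It was low on Mrp4-null array 2 and WT array 3, where another Rps15a probe, A_55_P1960775, read 13.60 and 13.57 and was not low, although its own residual SD was also over 0.2.

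The steadiest member was Rpl8, a core protein of the large subunit, which read 15.20, 15.25, 15.21 and 15.22 on the Mrp4-null arrays and 15.18, 15.23, 15.23 and 15.17 on the WT arrays. Its residual SD was 0.028, and its log2 fold change was 0.016 (95% interval -0.13 to 0.17). One probe of Rpl3, which lies near the peptidyl transferase center, read 14.69, 14.72, 14.73 and 14.68 on the Mrp4-null and 14.73, 14.72, 14.74 and 14.65 on the WT arrays. One of the 2 probes of Rpl7a and one of the 2 probes of Rpl29 had residual SDs of 0.043 and 0.045. These were the 4 lowest residual SDs among the members, and none of them belonged to the small subunit.

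A further 19 probes of 17 genes ran the other way, below their genotype mean on both Mrp4-null array 2 and WT array 3. Both Rps6 probes were among them, at -0.078 and -0.054 for A_55_P1955239 and at -0.0059 and -0.026 for A_55_P1963817. Rpl14, an RNA-binding protein of the large subunit, deviated by -0.123 and -0.170, and Rpl21 by -0.096 and -0.040. These probes were nevertheless mostly low on Mrp4-null array 3 and WT array 1, where Rpl14 deviated by -0.225 and -0.173 and Rpl21 by -0.181 and -0.230. Rpl14 and Rpl21 were chosen for mention after their values were seen.

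The noise between spots of an array is given for scale. It leaves out the errors of labelling and hybridization, so it does not separate technical from biological variation between arrays. Of the member probes, 59 were spotted 10 times on each array, and the SD between spots had a median of 0.034, from 0.021 to 0.066. The residual SD between arrays was a median of 10.5 times the standard error of the mean of the spots. The residual SD had a median of 0.115 for these 59 probes and of 0.119 for the 80 spotted once.

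**Figure D5:**
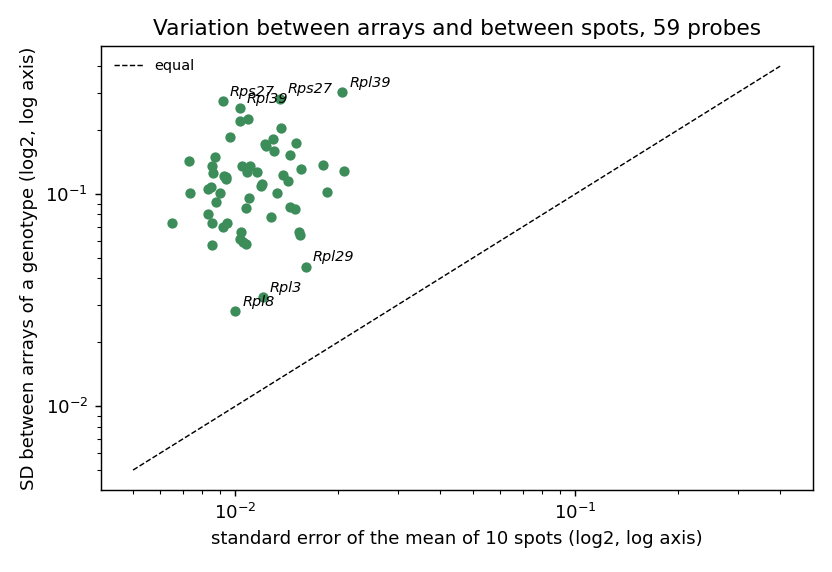
Residual SD between arrays of a genotype (vertical, log2, log axis) against the standard error of the mean of 10 spots (horizontal, log2, log axis) of the 59 member probes spotted 10 times; the dashed line marks equal values. All points lie above the line, with Rps27 and Rpl39 highest and Rpl8 lowest.

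Other lists of the translation machinery had no probe that limma called, and not all shared the shift. The mitochondrial ribosomal proteins, nuclear genes for the separate ribosome of mitochondria, were measured by 101 probes of 78 genes, of which 0 were called and 0 had an unadjusted limma p under 0.05. Their median deviation was 0.00070, 0.075, -0.066 and -0.011 on the Mrp4-null arrays and -0.039, -0.0011, 0.028 and -0.0090 on the WT arrays. They were thus highest and lowest on the same arrays as the cytosolic members, by smaller amounts. The part of a common source in both was not tested.

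Initiation factors, which bring the subunits to the messenger RNA, were measured by 54 probes of 40 genes, with 0 called by limma, 1 called by the local pooled error test and 2 at an unadjusted limma p under 0.05. Their median deviation was -0.013 on Mrp4-null array 2 and -0.0072 on WT array 1. Elongation and termination factors, with 27 probes of 14 genes and 0 called by either test, deviated by -0.082 and 0.013 on these arrays. Ribosome assembly factors, with 77 probes of 46 genes and 0 called by either test, deviated by -0.025 and 0.050, and regulators of mTOR and TOP messages, with 23 probes of 14 genes and 0 called by either test, by -0.103 and 0.039. The shift of the ribosomal proteins on these arrays, 0.103 and -0.148, was of the opposite sign to that of the last 3 lists. Of the proteins of the cytosolic ribosome whose symbols the rule does not take, such as Fau and Rack1, 10 probes of 6 genes were measured, 0 were called by either test, and they deviated by 0.055 and -0.022. Across the last 4 lists, 1 probe, of an assembly factor, had an unadjusted limma p under 0.05.

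The 19 member genes known from Diamond-Blackfan anemia, an inherited failure of red cell formation, were read by 35 probes. Of these, 12 had a higher and 23 a lower mean on the Mrp4-null arrays, with a median log2 fold change of -0.014, and 0 were called. They included the variable Rps27 and Rpl31 and also Rps20, which read 16.18, 16.41, 16.17 and 16.18 on the Mrp4-null and 16.06, 16.19, 16.33 and 16.32 on the WT arrays (log2 fold change 0.0059). Markers of several cell types also varied between the arrays of a genotype. The lens genes had a median deviation of -0.66, -0.93, 0.45 and 1.15 on the Mrp4-null arrays and 0.28, 1.28, -1.19 and -0.34 on the WT arrays. The 5 probes of 4 of 6 blood genes had -0.36, 0.26, 0.43 and -0.32 on the Mrp4-null arrays and 0.59, -0.14, -0.27 and -0.19 on the WT arrays, and all 5 were above their genotype mean on Mrp4-null array 3 and WT array 1, where the members were low. Their median log2 level ran from 12.09 to 12.60 on the Mrp4-null arrays and from 11.60 to 12.61 on the WT arrays. The 16 rod probes had -0.0061, -0.071, 0.023 and 0.063 on the Mrp4-null arrays and 0.066, 0.0042, -0.054 and -0.029 on the WT arrays, with the opposite sign to the members on all arrays but Mrp4-null array 1 and WT array 2. The 10 myeloid probes had 0.70 on Mrp4-null array 3 and between -0.39 and 0.079 on the other arrays, and the 12 pigment epithelium probes had between -0.36 and 0.38. The cone, inner retina, Muller glia, muscle and endothelial lists stayed between -0.21 and 0.17. The part of these cell types in the members' shift was not tested.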

How the data were processed

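Retinal RNA of 4 Mrp4-null and 4 WT samples was hybridized to 8 one-color arrays. The authors deposited the scanner output, in which Agilent Feature Extraction 11.0.1.1 had given each spot a processed intensity, background-subtracted and not normalized between arrays. A deposited table of the series holds the mean processed intensity per probe. RefSeq tables (GRCm38.p6, not the build of the array design) gave names, chromosomes and promoters. Accessions matched for 32994 of 56605 probes (58.3%).

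Of 62976 spots per array, 59305 were not controls; 78 to 143 outlier spots per array were left out, and the log2 of the deposited intensity was averaged per probe. Retained were 37085 probes that, in 1 genotype or both, were well above background on every array that measured them (3 or more there, 2 or more in the other genotype), and these were quantile normalized. Genotypes were compared with limma 3.58.1 in R 4.3.3 (statmod 1.5.0), with Benjamini-Hochberg adjustment over all retained probes. The study's local pooled error test was rewritten as an alternative. The scripts were tested on simulated data. Correlations of the deviations of same-numbered samples were -0.29, -0.69, 0.034 and 0.41 over 37075 probes, and the main fit did not pair the samples. These correlations could not exclude a pairing, as the deviations within a genotype are tied to each other through their mean.

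The members and gene lists were chosen with earlier results of these data known. Named were called members, the 10 smallest p, the 8 largest and 4 smallest residual SDs, variant copies and their partners, stalk proteins, Rpl5 and Rpl11, members on chromosomes 14, 8 and 4, the 5 genes whose probes differ most, Rps6, Rpsa and Abcc4; a few of these are not reported here. Alternatives were other normalizations, background corrections, filters, tests, thresholds, probes per gene, the sample number as a block and each array left out. The number of arrays limits the precision.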

Additional observations from a re-analysis of the deposited data

Results flagged for a closer look

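In 10 of 120 sets of 4 arrays, the highest or lowest array stood apart, its gap to the nearest other array taking most of the whole range (Dixon's test at 95%). Chance gives about 1 such set in 20 only for independent sets that were not chosen by their values. Several of the probes screened were named for their residual SD or p in these data, and all sets share the same arrays. The count of 10 is therefore not a test against that rate. The following values stand apart in Mrp4-null array 2. The 75th percentile of its signal was 678, against 1000 to 1058 on the other Mrp4-null arrays. Rpl11 was at a log2 level of 15.86, against 15.70 to 15.72. Rpl15 (probe A_55_P1990457) was at 14.21, against 13.93 to 13.97. Rpl39 (probe A_55_P2857689) was at 12.23, against 11.48 to 11.60. Rps20 was at 16.41, against 16.17 to 16.18. Rpl29 (probe A_55_P1996509), the only one of these probes below its group, was at 15.04, against 15.15 to 15.17, while its other probe was highest on this array, at 13.67 against 13.56 to 13.63.

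Mrp4-null array 3 stood apart in Rps24 (probe A_55_P2032600), at 15.73 against 16.53 to 16.61. WT array 1 stood apart in the median level of the 139 ribosomal protein probes, at 14.42 against 14.60 to 14.63, and in Rplp2, at 16.05 against 16.26 to 16.30. WT array 2 stood apart in the same Rpl29 probe, at 15.16 against 15.12, the narrowest of these gaps.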

How the results depend on the processing

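The number of ribosomal protein probes called was 0 under every alternative that was run, also with each array left out in turn and with the sample number as a replicate block. For the 58 named probes, 1102 alternative values were computed, of which 0 were called and 149 had the other sign than the reported value. The number of retained probes called was 98 without normalization, 71 with the replicate block, 699 by the fold change alone and 128 without Mrp4-null array 2 and WT array 3, an alternative chosen after seeing the data. It lay between 117 and 188 with 1 array left out, at 131, 129 and 117 without WT arrays 2, 3 and 4. The cause was not tested.

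The number of members with a higher mean on the Mrp4-null arrays was 11 after the shift to the 75th percentile, 108 without normalization and 31 of 80 with 1 probe per gene, and lay between 26 and 103 with 1 array left out. The scalings also move all probes: the median log2 fold change of all retained probes was -0.0018 after the shift and 0.079 without normalization, that of the members -0.053 and 0.028. With 1 probe per gene, fewer probes are tested, and 80 of 80 intervals lay within 1.5-fold. The median SD between arrays was 0.186 after the shift and 0.195 without normalization. The median deviation of Mrp4-null array 2 was 0.238 after the shift. Without normalization, differences in overall signal remain, and the median deviations were 0.187, -0.206 and 0.092 on Mrp4-null arrays 1, 2 and 4 and 0.279, -0.153 and -0.071 on WT arrays 2, 3 and 4. With 1 array left out, the members' median log2 fold change lay between -0.061 and 0.027, and 134 to 138 intervals lay within 1.5-fold.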
